A study of Mus musculus with 19 samples.

Results

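The acute phase glycoproteins and fibrinogen described here are 10 transcripts of the mouse liver, Orm1, Orm2, Lbp, Fgl1, Lrg1, Itih4, Serpina3n, Fga, Fgb and Fgg. They were chosen by name, as all probes of the array whose annotated gene is one of these, which gave 13 probes (3 for Itih4, 2 for Fga and 1 for each other gene) of 23978 probes with a gene name, or 10 of 16593 genes. Male Swiss-Webster mice of 7 weeks, fasted before and during the experiment, were given either AM251 at 10 mg/kg and then IDFP at 10 mg/kg (AM251/IDFP, 5 mice), IDFP alone at 10 mg/kg (8 mice) or the vehicle DMSO (6 mice), by injection into the abdomen, and livers were taken after 4 h. IDFP is an organophosphorus compound that inhibits MAGL and FAAH, the enzymes that break down 2-AG and anandamide, which are endocannabinoids. AM251 blocks their receptor CB1. The comparison of IDFP with DMSO asks what IDFP changed in the liver, and that of AM251/IDFP with IDFP asks which of these changes depended on CB1. No mice received AM251 alone, so that an effect of AM251 by itself cannot be told apart from a block of the IDFP effect. Each array held the RNA of a separate mouse.

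The acute phase response is the change in the set of plasma proteins that the liver secretes during infection or injury. Interleukin 6, acting through its receptor and the transcription factor STAT3, and interleukin 1, acting through MYD88 and NF-kB, induce these genes in hepatocytes, together with C/EBP factors and glucocorticoids. Orm1 and Orm2 encode orosomucoid (alpha-1-acid glycoprotein), a heavily glycosylated plasma carrier of drugs and lipids. Lbp encodes the protein that carries bacterial lipopolysaccharide to CD14, Lrg1 a leucine-rich glycoprotein, Itih4 a member of the inter-alpha-trypsin inhibitor family, and Serpina3n a serine protease inhibitor. Fga, Fgb and Fgg encode the 3 chains of fibrinogen, which thrombin turns into fibrin, and Fgl1 encodes a secreted relative of fibrinogen made by hepatocytes.

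Levels are given as the deposited intensities, in linear units, after quantile normalization and background subtraction by the authors, so that values near 0 are background. Log2 changes come from a limma fit of all 3 groups, with p-values adjusted over the 9352 genes detected in at least 1 group by the Benjamini-Hochberg method, and a gene was called at an adjusted p under 0.05. All 10 members were among the genes tested. Between 9004 and 9163 genes were detected on an array. Of the hepatocyte markers, 8 of 8 on the array were detected, with summed intensities of 121361 to 133705 in AM251/IDFP-, 118387 to 129806 in IDFP- and 115392 to 127539 in DMSO-treated mice. Tat was dim among them, with means of 206, 122 and 58.7 units in these groups, and so was Alb. Apart from Hnf4a, given below with the transcription factors, Ass1 was called for IDFP vs DMSO (0.37, adjusted p = 0.0352 by limma) and for AM251/IDFP vs DMSO (0.51, adjusted p = 0.0206), and Tat for AM251/IDFP vs DMSO (1.60, adjusted p = 0.0138). The calls of Ass1 were lost without any one of IDFP mice 1, 2 and 8 or DMSO mice 3, 4 and 5 (adjusted p of at most 0.106), and of AM251/IDFP mouse 4 or DMSO mice 3, 4 and 5 (at most 0.0616). In whole liver, fewer cells that make a transcript and less of it per cell cannot be told apart.

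Of the members, 6 were lower after IDFP than after DMSO, and these were higher again in mice that had also received AM251, whereas neither Serpina3n nor any fibrinogen chain passed the test in any comparison. With IDFP, 6 of the 10 members were lower than with DMSO (Orm1, Orm2, Lbp, Fgl1, Lrg1 and Itih4) and 0 were higher, where 9.53% of all genes tested were lower and 6.74% higher. For AM251/IDFP vs IDFP the same 6 genes were higher and 0 were lower, where 5.97% of all genes were higher and 4.84% lower. Between AM251/IDFP and DMSO 0 of the 10 were called by limma, where 9.87% of all genes were, and 3 members (Orm1, Orm2 and Lbp) were higher at an unadjusted p under 0.05, as were 9.92% of all genes. The median log2 change of the 10 members was -0.42 for IDFP vs DMSO, 0.53 for AM251/IDFP vs IDFP and 0.09 for AM251/IDFP vs DMSO, beside medians of -0.0010, -0.012 and -0.0087 over all genes tested. The first pair of comparisons shares the IDFP mice, so their opposite signs are not independent of each other.

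**Figure D1:**
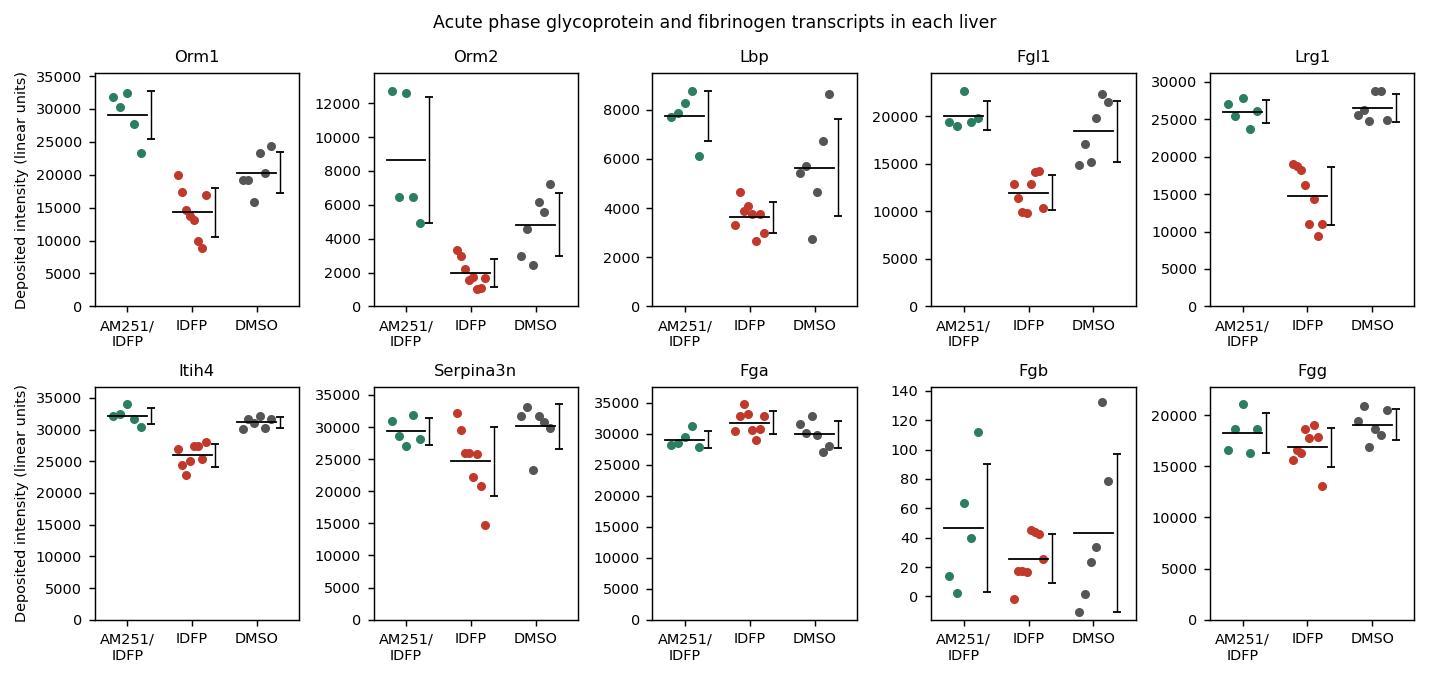
Deposited intensity (linear units) of each of the 10 members in each mouse, with AM251/IDFP-, IDFP- and DMSO-treated mice from left to right. Points are mice, horizontal lines are group means and bars are 1 SD (n = 5, 8 and 6). For Orm1, Orm2, Lbp, Fgl1, Lrg1 and Itih4 all 5 AM251/IDFP-treated mice lie above all 8 IDFP-treated mice, and the scale for Fgb covers only -10.6 to 132 units.

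The upstream sequences of members that were called and of members that were not are shown because the pathways named above act through short DNA motifs. Promoters came from a RefSeq table of build GRCm38.p6, in which 7 of the 10 members were matched (not Orm1, Lbp or Fgl1). Each run below holds the 250 bases before the annotated start, 5′ to 3′ on the strand of the gene. Capitals mark 3 motifs, searched on both strands: the STAT palindrome TTCNNNGAA, the core of the type 2 interleukin 6 response element CTGGGAA, and the C/EBP motif TTGCNNAA. The first 3 sequences are of transcripts that were lower with IDFP, and the last 3 are of the fibrinogen chains, which were not called.
Orm2, chr4:63362199-63362448, plus strand: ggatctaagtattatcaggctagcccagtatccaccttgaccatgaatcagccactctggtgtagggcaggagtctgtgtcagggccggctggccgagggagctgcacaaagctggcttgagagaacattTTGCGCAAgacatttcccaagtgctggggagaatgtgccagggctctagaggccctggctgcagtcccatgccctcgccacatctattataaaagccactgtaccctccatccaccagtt
Lrg1, chr17:56121947-56122196, minus strand: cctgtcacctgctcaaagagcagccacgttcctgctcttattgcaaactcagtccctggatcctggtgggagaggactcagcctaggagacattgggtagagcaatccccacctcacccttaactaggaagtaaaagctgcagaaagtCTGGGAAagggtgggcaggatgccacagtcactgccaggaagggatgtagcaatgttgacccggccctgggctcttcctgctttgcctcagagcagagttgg
Itih4, chr14:30886226-30886475, plus strand: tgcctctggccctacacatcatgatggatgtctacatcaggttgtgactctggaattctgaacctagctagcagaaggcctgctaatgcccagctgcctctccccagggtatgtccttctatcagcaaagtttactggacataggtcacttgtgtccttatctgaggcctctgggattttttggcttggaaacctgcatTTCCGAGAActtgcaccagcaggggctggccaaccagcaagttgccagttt
Fga, chr3:83025903-83026152, plus strand: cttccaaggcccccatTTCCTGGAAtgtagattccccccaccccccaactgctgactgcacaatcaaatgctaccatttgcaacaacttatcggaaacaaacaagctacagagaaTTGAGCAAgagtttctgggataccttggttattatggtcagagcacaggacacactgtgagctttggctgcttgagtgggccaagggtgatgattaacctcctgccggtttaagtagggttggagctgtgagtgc
Fgb, chr3:83049864-83050113, minus strand: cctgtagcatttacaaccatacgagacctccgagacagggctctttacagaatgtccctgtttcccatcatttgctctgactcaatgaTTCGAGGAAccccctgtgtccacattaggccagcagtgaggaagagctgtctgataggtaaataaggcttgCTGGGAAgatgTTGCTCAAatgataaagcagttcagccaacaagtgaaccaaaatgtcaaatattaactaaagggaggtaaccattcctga
Fgg, chr3:83007474-83007723, plus strand: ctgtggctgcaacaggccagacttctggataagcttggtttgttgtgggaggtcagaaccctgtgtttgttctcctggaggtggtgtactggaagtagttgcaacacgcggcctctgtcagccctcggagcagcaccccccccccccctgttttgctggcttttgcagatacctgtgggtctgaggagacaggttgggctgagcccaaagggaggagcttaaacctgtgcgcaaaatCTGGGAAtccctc

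The STAT palindrome was found in 3 of the 7 member promoters, those of Itih4, Fga and Fgb, and in 7.02% of all 32851 promoters of the table. CTGGGAA was found in Lrg1, Fgb and Fgg, and in 9.10% of all promoters, and the C/EBP motif in Orm2, Fga and Fgb, and in 9.56%. Fgb held all 3 motifs, with the first bases of the palindrome, CTGGGAA and the C/EBP motif at 162, 91 and 80 bases before the start. Of other motifs, GGGNNTTTC of NF-kB was found in Serpina3n alone (3.72% of all promoters), GTTAATNAT of HNF1 in Fga alone (0.737%), ACANNNTGT of the glucocorticoid receptor in Fga, Fgb and Serpina3n (5.84%), and TATAAA in Orm2 alone (12.4%), with its first base 33 bases before the start. Motifs were thus present both in members that were called and in members that were not, and a match is a run of letters, not a measured binding site. The Fgb probe was detected on 11 of 19 arrays only, so whether Fgb changed is not known.

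Orm2 had the largest log2 changes of the 10 members. Its intensity was 12746, 6459.6, 12607, 6449 and 4922 in the AM251/IDFP-treated mice, against a lowest of 1040.02, a median of 1702 and a highest of 3316 with IDFP and a lowest of 2444, a median of 5064 and a highest of 7222 with DMSO. All AM251/IDFP-treated mice lay above all IDFP-treated mice, and 2 of them lay above every DMSO-treated mouse, whereas 6 of the 8 IDFP-treated mice lay below every DMSO-treated mouse. The log2 change was -1.29 for IDFP vs DMSO (SE 0.293, adjusted p = 0.00461 by limma), a fold of 0.408. It was 2.12 for AM251/IDFP vs IDFP (SE 0.309, adjusted p = 0.000232), a fold of 4.34. Between AM251/IDFP and DMSO it was 0.83 (SE 0.328, adjusted p = 0.116).

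Orm1, the neighbouring copy, moved the same way by smaller steps. Its intensity was 31752, 30295, 32392, 27685 and 23267 in the AM251/IDFP-treated mice, against 8937, 14188 and 19909.6 (lowest, median and highest) with IDFP and 15788, 19749 and 24316 with DMSO. The AM251/IDFP-treated mice lay above all IDFP-treated mice, and 4 of 5 lay above every DMSO-treated mouse, while 5 of the 8 IDFP-treated mice lay below every DMSO-treated mouse. Orm1 changed by -0.54 (log2) for IDFP vs DMSO (SE 0.154, adjusted p = 0.0213 by limma), and by 1.05 for AM251/IDFP vs IDFP (SE 0.163, adjusted p = 0.000365). The first of these calls was lost without DMSO mouse 4 (adjusted p = 0.0569). For AM251/IDFP vs DMSO the change was 0.52 (SE 0.173, adjusted p = 0.0610), which was under 0.05 without IDFP mouse 1 (0.0462), 6 (0.0493) or 7 (0.0366), AM251/IDFP mouse 5 (0.0484) or DMSO mouse 6 (0.0422), and in a fit of these groups alone (0.0360).

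In the RefSeq gene table Orm1, Orm3 and Orm2 follow each other on chromosome 4. The copies are alike in sequence, the probe sequences were not used here, and the Orm1 and Orm2 probes may each take signal from the other transcript. The Orm3 probe was near background, with no more than 12.97 units on any of the 19 arrays, below the detection threshold of 17.4 to 17.5 units. Between mice of a group Orm1 and Orm2 varied together. Of 8 relations tested within groups (4 pairs of members in IDFP- and in DMSO-treated mice), these were the only ones past the threshold. Over log2 values Pearson's r was 0.90 among the 8 IDFP-treated mice (two-sided exact permutation p = 0.00441, adjusted 0.0333) with Spearman's rho of 0.857 (exact p = 0.0107, adjusted 0.0429). Among the 6 DMSO-treated mice r was 0.92 (exact p = 0.00833, adjusted 0.0333) and rho 1 (exact p = 0.00278, adjusted 0.0222). Without the 2 mice farthest from the median of Orm1, r was 0.77 with IDFP (exact p = 0.0875) and 0.74 with DMSO (exact p = 0.292). With so few mice left, the missed threshold does not show that the relations rest on those left out.

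Lbp was low in all IDFP-treated mice and spread widely with DMSO. Its intensity was 7703.5, 7867, 8285, 8784 and 6112 in the AM251/IDFP-treated mice, against 2671, 3742 and 4671 (lowest, median and highest) with IDFP and 2724, 5567 and 8637 with DMSO. All AM251/IDFP-treated mice lay above all IDFP-treated mice, but IDFP overlapped DMSO, since DMSO mouse 3 had the second lowest Lbp intensity of all 19 mice. The log2 change was -0.57 for IDFP vs DMSO (SE 0.183, adjusted p = 0.0382 by limma), and 1.09 for AM251/IDFP vs IDFP (SE 0.193, adjusted p = 0.00109). The first call was lost without any one of IDFP mice 1, 5, 6 and 8 or DMSO mice 1, 2, 5 and 6 (adjusted p of at most 0.104), and in a fit of those groups alone (0.0587). Between AM251/IDFP and DMSO the change was 0.53 (SE 0.205, adjusted p = 0.108), and without DMSO mouse 6 the adjusted p was 0.0270. Of the partners and relatives of LBP, 3 of 7 on the array were tested. Cd14, its receptor for lipopolysaccharide, was higher in IDFP than in DMSO by 1.41 (SE 0.29, adjusted p = 0.00247) and in AM251/IDFP than in DMSO by 1.51 (SE 0.33, adjusted p = 0.00902), while AM251/IDFP vs IDFP gave 0.10 (adjusted p = 0.884). Thus Cd14 differed from DMSO in the direction opposite to Lbp with IDFP. Ly96, a part of the same receptor complex, changed by -0.37 with IDFP (adjusted p = 0.0810), and Pltp, a phospholipid transfer protein, by -0.06 (adjusted p = 0.864). Thus 1 of the 3 was called for IDFP vs DMSO and for AM251/IDFP vs DMSO, where 16.3% and 9.87% of all genes were.

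Lrg1 separated the IDFP-treated mice from all others. Its intensity was 26979, 25394, 27892.5, 23743 and 26144 in the AM251/IDFP-treated mice, against 9461, 15297.5 and 19038 (lowest, median and highest) with IDFP and 24758, 25883 and 28848 with DMSO. The highest IDFP-treated mouse lay below the lowest mouse of each other group, and AM251/IDFP and DMSO overlapped. Lrg1 changed by -0.89 (log2) for IDFP vs DMSO (SE 0.139, adjusted p = 0.000207 by limma), by 0.86 for AM251/IDFP vs IDFP (SE 0.147, adjusted p = 0.00085) and by -0.03 for AM251/IDFP vs DMSO (SE 0.156, adjusted p = 0.945, 95% interval -0.35 to 0.30). The spread was widest with IDFP, with a coefficient of variation of 26.1% over 8 mice, against 6.08% with AM251/IDFP and 7.03% with DMSO. In IDFP mice 1 to 8 the intensities were 19038, 18693, 18254, 16220, 11074, 14375, 9461 and 11037, so the lower values had the later numbers. A trend over mouse numbers was not tested.

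Fgl1 was also lower in every IDFP-treated mouse than in any other mouse. Its intensity was 19361, 19038, 22724, 19459 and 19794 in the AM251/IDFP-treated mice, against 9804, 12139.8 and 14219.7 (lowest, median and highest) with IDFP and 14896.5, 18424 and 22311 with DMSO. The log2 change was -0.62 for IDFP vs DMSO (SE 0.112, adjusted p = 0.000733 by limma), 0.76 for AM251/IDFP vs IDFP (SE 0.119, adjusted p = 0.0004) and 0.14 for AM251/IDFP vs DMSO (SE 0.126, adjusted p = 0.552). Relatives of Fgl1 and Lrg1 by domain were also on the array, and of 4 tested only Angptl4, an inhibitor of lipoprotein lipase with a fibrinogen-like domain, passed the test. It was higher in IDFP than in DMSO by 0.49 (SE 0.16, adjusted p = 0.0371), a call that was lost without any one of IDFP mice 1, 5, 6 and 7 or DMSO mice 2, 3, 4 and 5 (adjusted p of at most 0.106). In AM251/IDFP it was 0.61 higher than in DMSO (SE 0.18, adjusted p = 0.0348), which was lost without any one of AM251/IDFP mice 1, 4 and 5 or DMSO mice 2 to 5 (adjusted p of at most 0.0965). Beside this 1 call of 4 in each of these comparisons, 16.3% and 9.87% of all genes were called.

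Itih4 was measured by 3 probes, which agreed in direction and differed in size. The brightest gave 32185, 32392, 34072, 31752 and 30418 in the AM251/IDFP-treated mice, against 22906, 26186 and 28006 (lowest, median and highest) with IDFP and 30049, 31374 and 32185 with DMSO, so that IDFP overlapped neither group. Its log2 change was -0.27 for IDFP vs DMSO (SE 0.0635, adjusted p = 0.00672 by limma), 0.31 for AM251/IDFP vs IDFP (SE 0.067, adjusted p = 0.00469) and 0.05 for AM251/IDFP vs DMSO (adjusted p = 0.753). The dimmest of the Itih4 probes gave -0.68, 1.01 and 0.33 for these comparisons, and the third probe -0.36, 0.39 and 0.03. For both, the first 2 changes had adjusted p of 0.00873 or less over all probes tested, and the last had 0.269 and 0.899. On the brightest probe Itih4 ranked between 5 and 76 of 25697 probes on every array, at the top of the scale, where quantile normalization sets a value by its rank and 15 distinct values were shared by 19 mice.

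Among the relatives of Itih4, the heavy chain Itih3, its neighbour on chromosome 14, had a log2 change of -0.39 for IDFP vs DMSO (SE 0.12, adjusted p = 0.0304 by limma). That call was lost without any one of IDFP mice 5, 7 and 8 or DMSO mice 3, 4, 5 and 6 (adjusted p of at most 0.0930). The other 4 members of the family were not called, with Itih1 at -0.22 (adjusted p = 0.0735), Itih2 at 0.09 (adjusted p = 0.735) and Itih5 at 0.08 (adjusted p = 0.672). For AM251/IDFP vs IDFP 0 of the 5 were called by limma, and 0 had an unadjusted p under 0.05. The shares of all genes called were 16.3% for IDFP vs DMSO and 10.8% for AM251/IDFP vs IDFP.

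**Figure D2:**
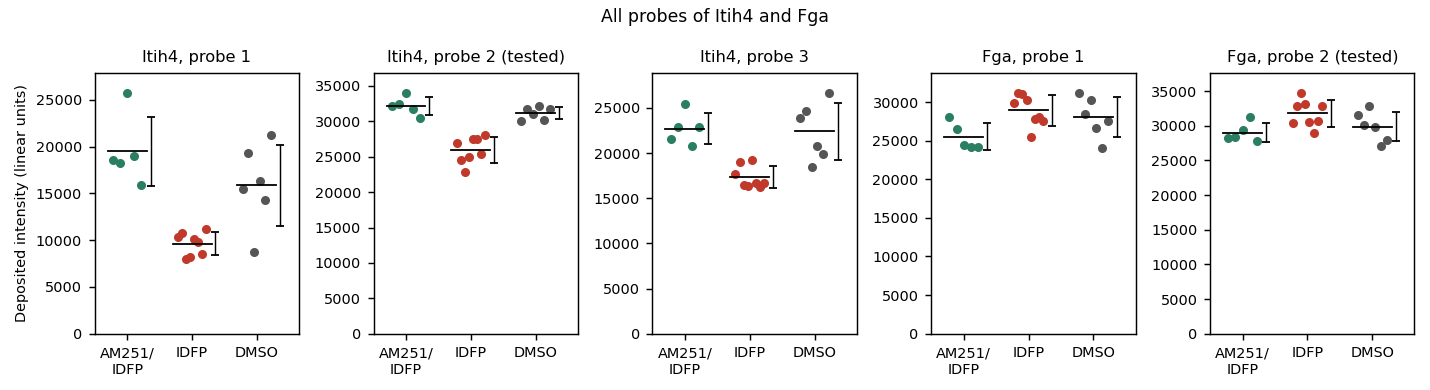
Deposited intensity (linear units) of the 3 probes of Itih4 and the 2 probes of Fga in each mouse, with AM251/IDFP-, IDFP- and DMSO-treated mice from left to right (means and 1 SD, n = 5, 8 and 6). All 3 Itih4 probes place the 5 AM251/IDFP-treated mice above the 8 IDFP-treated mice, and both Fga probes place the groups in overlap.

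Serpina3n passed the test in no comparison. Its intensity was 30996, 28564, 26979, 31911 and 28205 in the AM251/IDFP-treated mice, against 14757, 25873 and 32185 (lowest, median and highest) with IDFP and 23267, 31234 and 33195 with DMSO. The groups overlapped in each comparison. The log2 change was -0.31 for IDFP vs DMSO (SE 0.133, unadjusted p = 0.0288, adjusted p = 0.111 by limma), 0.28 for AM251/IDFP vs IDFP (SE 0.140, adjusted p = 0.228) and -0.03 for AM251/IDFP vs DMSO (adjusted p = 0.934). The change with IDFP was no smaller than that of the brightest Itih4 probe (-0.27), which was called with a smaller SE (0.0635). Serpina3n belongs to a cluster of near copies, with Serpina3m and Serpina3k beside it on chromosome 12. Of 10 other genes of the cluster listed, only Serpina3b had a probe, and it was at background, so signal of other copies in the Serpina3n probe was not tested.

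The fibrinogen chains were read by probes of very different brightness. Fga had intensities of 28205, 28439, 29440.5, 31229.6 and 27783 in the AM251/IDFP-treated mice, against 28969.9, 31752 and 34803 (lowest, median and highest) with IDFP and 27103, 29907 and 32787 with DMSO, on its brighter probe. The groups overlapped, and the median was highest with IDFP. The log2 changes were 0.09 for IDFP vs DMSO (SE 0.0666, adjusted p = 0.390 by limma, 95% interval -0.05 to 0.23), -0.13 for AM251/IDFP vs IDFP (adjusted p = 0.274, interval -0.28 to 0.02) and -0.04 for AM251/IDFP vs DMSO (adjusted p = 0.797). On the other probe of Fga they were 0.05, -0.18 and -0.13, and the middle one had an unadjusted p of 0.0328 (adjusted 0.170). This probe lay among the first 67 of 25697 on every array, and the brighter among the first 44.

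Fgg had intensities of 16569.5, 18693.5, 21115, 16289 and 18693.5 in the AM251/IDFP-treated mice, against 13068, 17152 and 19038 (lowest, median and highest) with IDFP and 16900.2, 19076 and 20934 with DMSO. The groups overlapped, although 4 of the 8 IDFP-treated mice lay below every DMSO-treated mouse. The log2 change was -0.18 for IDFP vs DMSO (SE 0.0893, unadjusted p = 0.0520, adjusted p = 0.167 by limma, 95% interval -0.37 to 0.0017), 0.12 for AM251/IDFP vs IDFP (adjusted p = 0.489) and -0.07 for AM251/IDFP vs DMSO (adjusted p = 0.746). A fall of Fgg of the size seen for Lrg1 lies outside this interval.

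The Fgb probe was dim, although the transcript is abundant in liver, and it says little about this chain. Its intensity was 14.1, 2.12, 63.9, 39.6 and 112 in the AM251/IDFP-treated mice, against -1.51, 21.3 and 45.4 (lowest, median and highest) with IDFP and -10.6, 28.5 and 132 with DMSO. It was above the detection threshold in 3 of 5, 4 of 8 and 4 of 6 mice of these groups. The log2 changes of -0.13 (SE 0.325, adjusted p = 0.827), 0.28 (adjusted p = 0.677) and 0.15 (adjusted p = 0.849) by limma had wide intervals, of -0.81 to 0.54 for IDFP vs DMSO. The sign of the first turned without DMSO mouse 5 (0.12) or 6 (0.01). The gene whose log2 values were most like those of Fgb over the 19 arrays was Alb, albumin, at Pearson's r of 0.85, and the Alb probe was also dim for a transcript of its abundance, with mean intensities of 364 in AM251/IDFP, 443 in IDFP and 421 in DMSO.

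The chains are neighbours on chromosome 3, in the order Fgg, Fga, Fgb. Between mice of a group they did not vary together past the threshold. Over the 6 DMSO-treated mice r was -0.78 for Fga and Fgb (exact permutation p = 0.0667, adjusted 0.178; rho -0.829, exact p = 0.0583, adjusted 0.156), and it was -0.31 for Fga and Fgg (exact p = 0.538; rho -0.143, exact p = 0.803) and -0.26 for Fgb and Fgg (exact p = 0.608; rho -0.314, exact p = 0.564). Over the 8 IDFP-treated mice the same pairs had r of -0.36, -0.37 and 0.39, with exact p of 0.380, 0.386 and 0.350 and rho of -0.359, -0.252 and 0.357 (exact p of 0.381, 0.549 and 0.389). The 8 relations share the Fgb probe in 4 cases, and its values lie near background.

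Of 7 tested genes of fibrinogen conversion and of fibrinolysis, 1 was lower and 0 were higher in IDFP than in DMSO, where 16.3% of all genes were called, and 0 were called for AM251/IDFP vs IDFP by limma (0 at an unadjusted p under 0.05). F10, which activates prothrombin, changed by -0.27 (SE 0.09, adjusted p = 0.0497), and this call was lost without any one of 13 mice (adjusted p of at most 0.134), namely IDFP mice 1 to 5 and 8, AM251/IDFP mice 2, 3 and 4 and DMSO mice 2 to 5. For AM251/IDFP vs DMSO the change of F10 was -0.38 (SE 0.10, adjusted p = 0.0254), which was lost without AM251/IDFP mouse 1, 2 or 4 or DMSO mouse 3 or 5 (adjusted p of at most 0.0659). With Plg, 2 of the 7 had an unadjusted p under 0.05 in that comparison. F2, prothrombin itself, changed by -0.09 with IDFP (adjusted p = 0.387) and Plg, plasminogen, by 0.15 (adjusted p = 0.293).

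**Figure D3:**
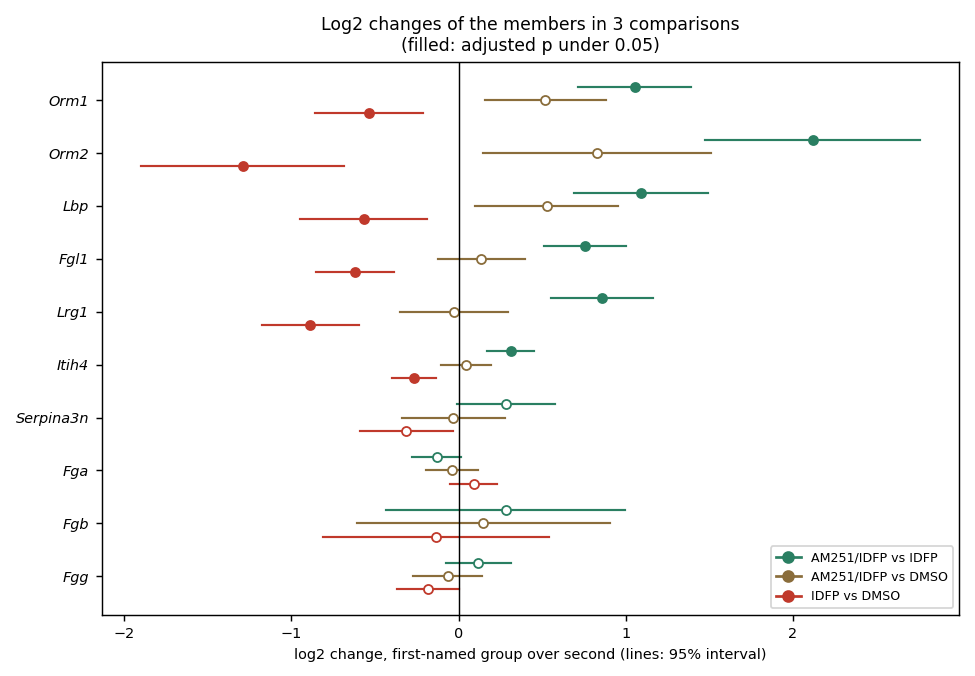
Log2 changes of the 10 members, as the first-named group over the second, for AM251/IDFP vs IDFP, AM251/IDFP vs DMSO and IDFP vs DMSO, with 95% intervals from the limma fit. Filled points have an adjusted p under 0.05: the same 6 glycoprotein transcripts are filled on the left for IDFP vs DMSO and on the right for AM251/IDFP vs IDFP, and no point is filled for AM251/IDFP vs DMSO.

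Counted by overlap alone, 3 members (Fgl1, Lrg1 and Itih4) had every IDFP-treated mouse below every DMSO-treated mouse, as did 2.72% of all genes tested. For AM251/IDFP above IDFP without overlap the count was 6 members, beside 2.53% of all genes. Single mice recurred at the ends of the groups. DMSO mouse 3 was the lowest of its group for 6 of the 10 members (Orm1, Orm2, Lbp, Lrg1, Serpina3n and Fgg) and the highest for Fga. AM251/IDFP mouse 3 was the highest of its group for 5 (Orm1, Fgl1, Lrg1, Itih4 and Fgg) and AM251/IDFP mouse 5 the lowest for 5 (Orm1, Orm2, Lbp, Itih4 and Fga). Without AM251/IDFP mouse 3 the same count of 6 members was called for AM251/IDFP vs IDFP, while the genes called in all fell to 667, against 1011 with it.

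Percent reversal expresses how far AM251/IDFP moved from the IDFP mean towards the DMSO mean, computed from group means of the linear intensities, so that 0% is the IDFP mean and 100% the DMSO mean. For the 6 members lowered by IDFP it was 245.6% ± 61.9 for Orm1, 233% ± 131 for Orm2, 205% ± 50.1 for Lbp, 125% ± 23.2 for Fgl1, 119% ± 25.3 for Itih4 and 95.7% ± 13.5 for Lrg1 (SD over the 5 AM251/IDFP-treated mice taken singly). Values above 100% mean that AM251/IDFP lay above DMSO, which limma did not call for any of the 6. On the log2 scale the reversals were 197% for Orm1, 164% for Orm2, 193% for Lbp, 122% for Fgl1, 117% for Itih4 and 97.0% for Lrg1. Single mice ranged from 104% to 377% for Orm2 and from 76.3% to 112% for Lrg1. The SD covers the AM251/IDFP-treated mice only and leaves out the error of the IDFP and DMSO means, and without DMSO mouse 6 the reversal of Lbp was 291%.

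**Figure D4:**
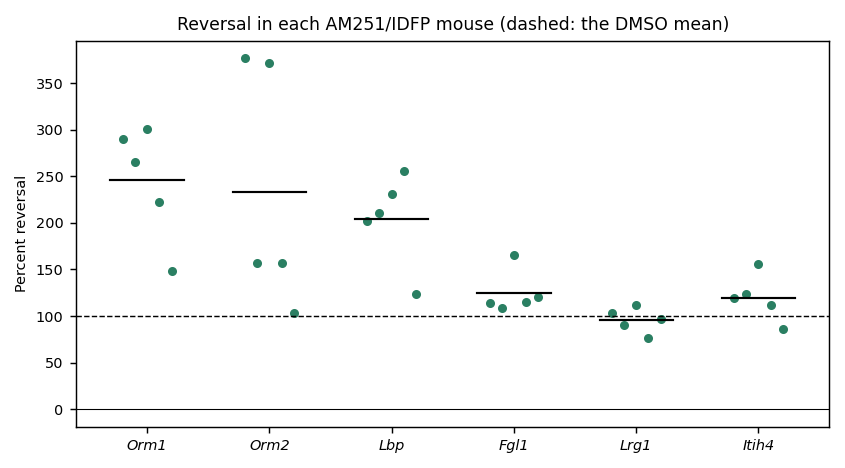
Percent reversal of the 6 members lowered by IDFP. Points are the 5 AM251/IDFP-treated mice taken singly and horizontal lines are the values from group means; 0 is the IDFP mean and the dashed line at 100 is the DMSO mean. All 5 mice lie above 100 for Orm1, Orm2, Lbp and Fgl1, and the values of Itih4 and of Lrg1 lie on both sides of it.

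Other positive acute phase transcripts, which rise in inflammation, were divided between those that were called and those that were not. Of 25 tested, 11 were lower and 1 (Cd14) higher in IDFP than in DMSO, beside 9.53% and 6.74% of all genes tested. Against IDFP alone, 9 were higher and 0 lower in AM251/IDFP, beside 5.97% and 4.84%, with median log2 changes of -0.38 and 0.28. Apcs, serum amyloid P, changed by -1.05 on the log2 scale with IDFP (SE 0.20, adjusted p = 0.00105 by limma) and by 1.11 for AM251/IDFP vs IDFP (SE 0.21, adjusted p = 0.00169). Steap4, a metalloreductase, changed by -1.46 (SE 0.30, adjusted p = 0.00217) and 2.60 (SE 0.32, adjusted p = 5e-05), and Serpina10, an inhibitor of factor Xa, by -0.97 (SE 0.09, adjusted p = 1.28e-06) and 0.65 (SE 0.10, adjusted p = 0.000268). Of those lower with IDFP, Crp, Itih3 and Mbl1 were not called for AM251/IDFP vs IDFP, while Saa3 was called there alone; of these 4 all but Itih3 were named with their values in view. Lcn2, lipocalin 2, was the gene most like Orm1 over the 19 arrays (Pearson's r of log2 values 0.94) and changed by -2.31 (SE 0.51) and 4.06 (SE 0.54). In contrast 13 of the 25 did not pass the test with IDFP, among them Hpx, hemopexin, at 0.07 (adjusted p = 0.546), Serpina1b at -0.01 (adjusted p = 0.965) and C4b at -0.01 (adjusted p = 0.965), 3 genes singled out with their values in view.

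Between AM251/IDFP and DMSO 2 of the 25, Cd14 and Steap4, were higher and 1, Serpina10, was lower, beside 3.66% and 6.21% of all genes. The call of Steap4 (1.15, adjusted p = 0.0349) was lost without any one of AM251/IDFP mice 2, 3 and 4 or DMSO mice 1 to 4 (adjusted p of at most 0.0947). That of Serpina10 (-0.33, adjusted p = 0.0470) was lost without any one of 16 of the 19 mice, all but AM251/IDFP mouse 3, IDFP mouse 1 and DMSO mouse 1 (adjusted p of at most 0.118). Of 12 negative acute phase transcripts, which fall in inflammation, only Igfals, a carrier of insulin-like growth factors, was called. It was 0.58 higher in IDFP than in DMSO (SE 0.17, adjusted p = 0.0271) and for AM251/IDFP vs IDFP its change was -0.58 (SE 0.18, adjusted p = 0.0476). Of all genes, 16.3% and 10.8% were called in these comparisons. The first call was lost without IDFP mouse 3, 4 or 8 or DMSO mouse 4 or 5 (adjusted p of at most 0.0850), and the second without any one of IDFP mice 3 to 6 and 8, AM251/IDFP mice 1 to 4 or DMSO mice 1 and 6 (adjusted p of at most 0.135).

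**Figure D5:**
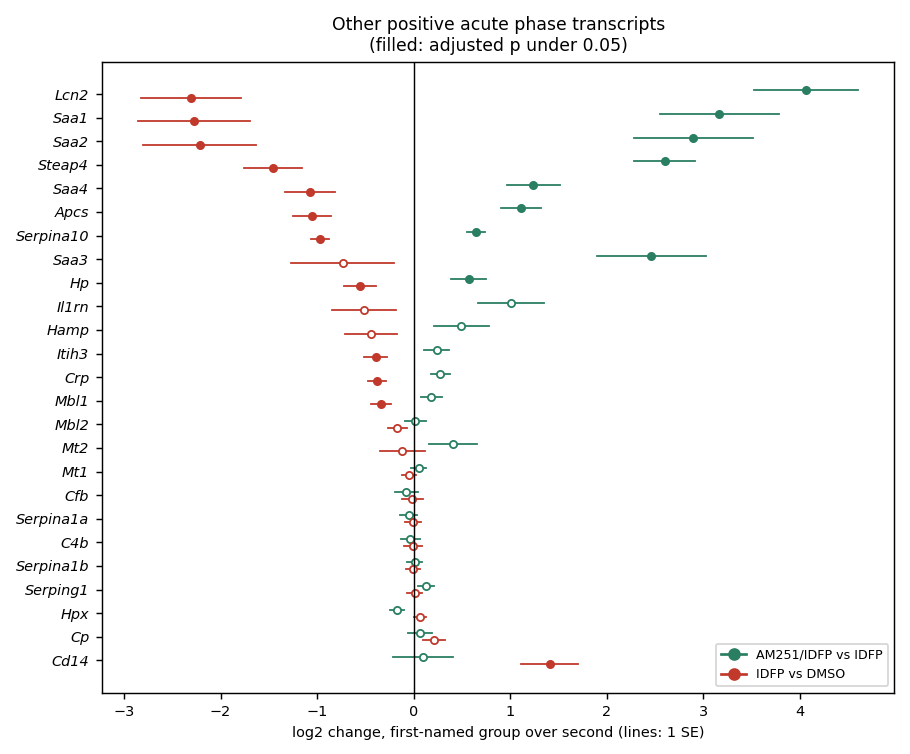
Log2 changes of 25 other positive acute phase transcripts, as the first-named group over the second, for AM251/IDFP vs IDFP and IDFP vs DMSO, with bars of 1 SE and filled points for an adjusted p under 0.05. With IDFP 11 are filled below 0 and Cd14 above 0, and 9 are filled above 0 for AM251/IDFP vs IDFP, with Lcn2 at 4.06.

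Of 18 tested receptors and signalling genes of interleukins 6 and 1, 1 was higher and 2 were lower in IDFP than in DMSO. These counts were near the shares of all genes, 6.74% higher and 9.53% lower. At an unadjusted p under 0.05 by limma there were 8 of the 18, beside 13.8% of all genes higher and 17% lower. Stat3, which carries the interleukin 6 signal to the nucleus, changed by -1.01 with IDFP (SE 0.15, adjusted p = 9.64e-05 by limma) and by 0.93 for AM251/IDFP vs IDFP (SE 0.15, adjusted p = 0.000684). Myd88, the adaptor of interleukin 1 and Toll-like receptors, changed by -0.90 (SE 0.15, adjusted p = 0.0004) and 1.07 (SE 0.16, adjusted p = 0.000298). The kinase Irak1 was 0.35 higher with IDFP (SE 0.12, adjusted p = 0.0457), a call lost without any one of IDFP mice 2, 3, 5, 7 and 8 or DMSO mice 1, 3, 4 and 5 (adjusted p of at most 0.130). For AM251/IDFP vs IDFP 4 of the 18 were higher, the others being Il1r1 and Osmr, and 1, Tyk2, was lower. These 3 were named after their values were seen. Of all genes, 5.97% were higher and 4.84% lower in that comparison. Tyk2 was also the only one of the 18 called between AM251/IDFP and DMSO, where it was lower, beside 6.21% of all genes.

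Transcription factors of acute phase genes moved in both directions. Of 10 tested, 3 were higher in IDFP than in DMSO: Cebpb, a C/EBP factor, by 1.03 (SE 0.19, adjusted p = 0.000995), Nfkbia, the inhibitor of NF-kB, by 1.00 (SE 0.19, adjusted p = 0.000975), and Nr3c1, the glucocorticoid receptor, by 0.45 (SE 0.11, adjusted p = 0.00909). The 3 that were lower were Foxa2, at -0.51 (SE 0.11, adjusted p = 0.00345), and Foxa3 and Hnf4a, which were named after their values were seen. Of all genes, 6.74% were higher and 9.53% lower in that comparison. The call of Hnf4a (-0.43, adjusted p = 0.0237) was lost without DMSO mouse 4 or 5 (adjusted p of at most 0.0759). Cebpb and Nfkbia differed little between AM251/IDFP and IDFP, at 0.12 (adjusted p = 0.771) and -0.09 (adjusted p = 0.836), while Foxa2 was 0.64 higher in AM251/IDFP (SE 0.12, adjusted p = 0.00134). The other 2 that were higher in AM251/IDFP than in IDFP were Bcl3 and Hnf4a, and Cebpa was lower (Bcl3 and Cebpa named with their values in view). Of all genes, 5.97% were higher and 4.84% lower there. There the call of Hnf4a (0.46, adjusted p = 0.0307) was lost without any one of IDFP mice 5 and 7 or AM251/IDFP mice 1, 2, 3 and 5 (adjusted p of at most 0.0717). Between AM251/IDFP and DMSO 4 of the 10 were higher (Bcl3, Cebpb, Nfkbia and Nfkbiz) and 1, Foxa3, was lower. The shares of all genes were 3.66% and 6.21%. Cebpb changed by 1.15 (SE 0.22, adjusted p = 0.0036 by limma) and Nfkbia by 0.91 (SE 0.21, adjusted p = 0.0116). Nfkbiz was named with its value in view. Of 15 tested genes of the secretory pathway, which fold and glycosylate plasma proteins, 0 were called in each of the 3 comparisons by limma. Of all genes, 16.3% were called for IDFP vs DMSO, 10.8% for AM251/IDFP vs IDFP and 9.87% for AM251/IDFP vs DMSO. In this order of comparisons, 4, 2 and 0 of the 15 had an unadjusted p under 0.05. The smallest p with IDFP belonged to Lman1, a cargo receptor for glycoproteins, at 0.31 (SE 0.11, adjusted p = 0.0504).

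Over all 19 arrays the genes most like the members in log2 values were Slc41a2 and Snx10 for both Orm1 (Pearson's r of 0.92 and 0.91) and Orm2 (0.94 and 0.93), beside Steap4 for Orm2 (0.94). They were Nop2, Stap2 and Brix1 for Lbp (0.93, 0.90 and 0.87), Tbp, Trak2 and Plrg1 for Fgl1 (0.92, 0.90 and 0.89), Narf, Eef1e1 and Cxcl1 for Lrg1 (0.94, 0.93 and 0.93), and 2700097O09Rik, Flot1 and Tbp for Itih4 (0.91, 0.91 and 0.90). Serpina3n was most like Hp, haptoglobin (0.92), Fga most like Rab5c (0.86) and Fgg most like Atf4 (0.81). These values include the differences between groups, so that genes changed by the treatments resemble each other. Among the members, r of Orm1 and Orm2 was 0.95 over all arrays and 0.85 for deviations from the group means, while for Orm1 and Fgl1 it was 0.67 over all arrays and -0.08 for deviations.

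Markers of other liver cells were measured beside the members. Of all genes, 16.3% were called for IDFP vs DMSO, 10.8% for AM251/IDFP vs IDFP and 9.87% for AM251/IDFP vs DMSO. Of 10 neutrophil markers on the array 5 were detected, and the defining granule genes Mpo, Elane, Camp and Mmp8 and the receptor Cxcr2 were not. Their summed intensity was 1133 to 6664 in AM251/IDFP-treated mice, with the highest in mouse 3 and the others at most 1830.4, against 693 to 1409.7 with IDFP and 402 to 1234 with DMSO. S100a8, S100a9 and Retnlg were higher in AM251/IDFP than in DMSO, by 1.46, 1.36 and 1.37 (adjusted p = 0.0156, 0.0234 and 0.0036), and the call of S100a9 was lost without DMSO mouse 3 or 4 (adjusted p of at most 0.0593). None of the 5 was called by limma in the other comparisons, where at an unadjusted p of 0.05 the counts were 3 for AM251/IDFP vs IDFP and 1 for IDFP vs DMSO. Of 8 Kupffer cell and macrophage markers, 0 were called with IDFP by limma (0 at an unadjusted p under 0.05) and 2, Clec4f (named with its value in view) and Timd4, were lower in AM251/IDFP than in IDFP, with summed intensities of 4318 to 6110.5, against 4839 to 7263. The call of Timd4 was lost without any one of IDFP mice 3, 5, 6 and 8 or AM251/IDFP mice 1, 3 and 4 (adjusted p of at most 0.103). The other Kupffer cell and macrophage markers went both ways for AM251/IDFP vs IDFP, and none was called. Marco changed by 0.66 (adjusted p = 0.0619 by limma), Cd163 by 0.13 and C1qb by 0.01. Adgre1 changed by -0.34, Vsig4 by -0.14 and C1qa by -0.12 (these last named with their values in view). Of 6 endothelial, 7 stellate cell and 3 lymphocyte markers tested, 1, 0 and 1 were lower and 0 of each were higher in IDFP than in DMSO. These were Clec4g (-0.36, adjusted p = 0.0276, lost without IDFP mouse 2 or DMSO mouse 3, 4 or 5) and Cd3e (-0.34, adjusted p = 0.0427, lost without any one of IDFP mice 2 to 6 or DMSO mice 2 to 6), with adjusted p of at most 0.0806 and 0.108 then. Cd3e was dim, with means of 39.8 units in IDFP and 55.1 in DMSO. The other lymphocyte markers did not fall with it, with Ms4a1 at 0.14 and Cd79b at 0.002. Beside Clec4g, the endothelial marker Lyve1 changed by -0.19. Cdh5 changed by 0.23, Pecam1 by 0.19, Oit3 by 0.08 and Stab2 by 0.04 (Oit3 and Stab2 named with their values in view). The endothelial marker Lyve1 was higher for AM251/IDFP vs IDFP (0.69, adjusted p = 0.0460) and the stellate cell marker Lrat lower (-0.91, adjusted p = 0.0154). The other endothelial markers were not called there, and most went the other way from Lyve1. Pecam1 changed by 0.03, Cdh5 by -0.07, Clec4g by -0.07, Stab2 by -0.22 and Oit3 by -0.42 (Stab2 and Oit3 named with their values in view). The call of Lyve1 was lost without any one of 13 mice, all but IDFP mice 5 and 6, AM251/IDFP mouse 1 and DMSO mice 2, 5 and 6 (adjusted p of at most 0.114). Lrat lost its call without AM251/IDFP mouse 3 or 4 (at most 0.0551). Its signal was dim, with means of 26.6 units in AM251/IDFP and 61.3 in IDFP. The other stellate cell markers were not called there and went both ways. Des changed by -0.55, Col3a1 by -0.16, Pdgfrb by -0.09 and Col1a1 by -0.007. Reln changed by 0.02 and Dcn by 0.09 (Col3a1, Reln and Dcn named with their values in view). Clec4g was also lower in AM251/IDFP than in DMSO (-0.43, adjusted p = 0.0304), a call lost without any one of AM251/IDFP mice 2, 3 and 4 or DMSO mice 3, 4 and 5 (at most 0.0911). The part of these cells in the levels of the members was not tested.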

How the data were processed

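Hepatic RNA of 19 mice was read on Illumina MouseRef-8 v2.0 BeadChips with 1 colour. The deposited values are linear intensities, made by the authors in BeadStudio 3.2 with quantile normalization and background subtraction, and 30.1% of them are below 0. Groups came from the sample titles. Another table of 38 columns, which could not be tied to single mice, was not used here, nor was the chip of each array, so that chip effects were not tested. The genome build behind the probes is not given in the sources used here. Of 25697 probes, 23978 had 1 gene and 1719 were unnamed.

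A probe was detected on an array above 1.64 times the background SD of 10.6 to 10.7 units (root mean square of the values below 0), and a gene was tested, through its brightest detected probe, when it was detected in most mice of any group. Values were corrected with normexp (offset 16), which shrinks the changes of dim genes, put on the log2 scale, quantile normalized, and fitted by lmFit and eBayes (limma 3.58.1, R 4.3.3) with the 3 groups together. The fit was tested on simulated data. Python 3.11.15, numpy 2.4.6, pandas 2.3.3 and matplotlib 3.10.9 made tables and plots. The number of arrays limits the precision, and p-values measure the spread between mice.

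Named genes were all 10 members, up to 4 genes per list with the lowest p in IDFP vs DMSO, and the 3 genes most like each member; others are marked where they appear. The members and the 16 gene lists were chosen with earlier results of these data known, and several acute phase genes were singled out by the study on these arrays, so that their direction is not independent evidence. Alternatives were an offset of 50, a floor of 10 units, median scaling of arrays, each probe by itself or probes averaged, stricter or no detection filter, trended and robust variances, array weights, a replicate block, fits of the 2 groups compared, log2 means for the reversal, and leaving out each mouse.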

Additional observations from a re-analysis of the deposited data

Results flagged for a closer look

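Of 30 sets of values examined (10 members in 3 groups), 2 had a mouse far from the others of its group, where chance alone flags about 1 in 20. Fgl1 in AM251/IDFP mouse 3 had an intensity of 22724, against 19038 to 19794 in the other mice of that group, a gap of 0.78 of the range of log2 values. Serpina3n in DMSO mouse 3 had 23267, against 29871 to 33195 in the others, a gap of 0.703 of the range of log2 values.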

How the results depend on the processing

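The count of 6 members called for AM251/IDFP vs IDFP was the same in all 30 alternatives. For IDFP vs DMSO 5 to 6 members were called without single mice. Between AM251/IDFP and DMSO 1 member (Orm1) was called in a fit of those groups alone and 0 to 2 without single mice. All genes called were 450 in that fit, against 923, and without single mice 408 to 1198 for AM251/IDFP vs DMSO and 667 to 1099 for AM251/IDFP vs IDFP. The reversal of Lbp ranged from 159% to 291% without single mice. Log2 changes near 0 turned their sign without single mice: Fgb ranged from -0.38 to 0.12 for IDFP vs DMSO (above 0 without DMSO mouse 5 or 6) and from -0.092 to 0.40 for AM251/IDFP vs DMSO (below 0 without AM251/IDFP mouse 5 or DMSO mouse 1), and Lrg1 from -0.052 to 0.0058 for AM251/IDFP vs DMSO (above 0 without AM251/IDFP mouse 4). Without the 2 mice farthest from the median the correlation of Orm1 and Orm2 fell to 0.77 with IDFP and 0.74 with DMSO, and that of Fgb and Fgg with DMSO was 0.00065. The call of Lbp for IDFP vs DMSO was lost with a floor of 10 units (adjusted p = 0.0527 by limma) and without a detection filter (0.0561). The causes were not tested. Other positive acute phase transcripts called between AM251/IDFP and DMSO numbered 1 to 5 without single mice. Listed genes that the rule did not name were not refitted without single mice.

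Whether equal replicate numbers pair the mice is not known. Deviations of 16 same-numbered pairs correlated at -0.19 to 0.26, with 5 above 0.1. Pairs of unequal numbers were not compared, so these values cannot decide it. With the replicate number as a block, 3 members (Fgl1, Lrg1 and Itih4) were called for IDFP vs DMSO, as Orm1 (adjusted p = 0.0609 by limma), Orm2 (0.0505) and Lbp (0.132) lost their calls, and 525 genes were called for AM251/IDFP vs IDFP, against 1011. Bright probes sit at the top of the scale, which can compress changes of Itih4, Fga, Serpina3n and Orm1, and the Fgb probe near background limits what is known of that chain.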
